A study of Mus musculus with 8 samples.

Results

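Fibroblasts and the cells that leave the fibroblast state during reprogramming are often recognised by the proteins on their surface, and 10 genes for such proteins are described here. They were chosen by symbol from the deposited gene table, which held 17922 rows, and each of the 10 had 1 row: Thy1 (ENSMUSG00000032011), Cd44 (ENSMUSG00000005087), Icam1 (ENSMUSG00000037405), Cd34 (ENSMUSG00000016494), Pdgfra (ENSMUSG00000029231), Pdgfrb (ENSMUSG00000024620), Cd248 (ENSMUSG00000056481), Fap (ENSMUSG00000000392), Eng (ENSMUSG00000026814) and Mcam (ENSMUSG00000032135). All 10 reached 1 FPKM in at least 1 library. FPKM is fragments scaled to gene length and library size, so levels of different genes can be set side by side. The values are RNA levels and not amounts of protein at the cell surface.

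The cells were mouse embryonic fibroblasts (MEFs) of strain C57BL/6, taken from fetuses of embryonic day 13.5, that carry tetO-OSKM, a doxycycline-inducible set of the factors Pou5f1, Sox2, Klf4 and Myc. The groups were MEFs (day 0), MEFs at day 3 and at day 6 after induction with 2 µg/mL doxycycline, and fully reprogrammed iPSCs (induced pluripotent stem cells) made from MEFs. Per the labels' protocols, reprogramming took place in medium with 15% serum replacement, 1000 U/mL LIF and 3 µM CHIR99021, an inhibitor of the kinase GSK3. The sources used here do not give the medium of the MEFs, the gene that makes the cassette respond to doxycycline, the number of fetuses pooled, or whether the iPSCs were 1 clone and still received doxycycline. An effect of induction and an effect of medium cannot be told apart between MEFs and day 3, day 6 or iPSCs.

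Each stage had 1 long RNA library, so no difference could be tested and none carries an error. A gene is called higher or lower where log2(FPKM + 1) differed by at least 1 (2-fold for a strongly expressed gene), with 1 FPKM or more in the higher library. From the lowest values of the table, relative fragment numbers were estimated at about 0.641 for day 3, 0.995 for day 6 and 1.05 for iPSCs with MEFs as 1, so low values were least precise at day 3. The labels were checked against marker lists. These separate iPSCs from the other libraries, and could not show a swap among MEFs, day 3 and day 6. All 14 fibroblast genes, such as Col1a1 and Prrx1, reached 1 FPKM in each of the 3 libraries before the iPSC stage, with summed levels of 9478 to 9842 FPKM against 253 in iPSCs. All 12 pluripotency genes, such as Nanog and Zfp42, reached it in iPSCs, with a sum of 1490 FPKM against 7.70 to 8.79 in the other libraries.

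Surface markers serve cell sorting because an antibody can reach them on living cells. Thy1 is a small glycoprotein held in the membrane by a lipid anchor, and its loss is a classical early sign that a fibroblast is leaving its state. CD44, a receptor for hyaluronan, and ICAM1, a ligand of leukocyte integrins, have been used together to stage reprogramming, with cells passing from high CD44 to low CD44 and then to high ICAM1. The PDGF receptors, endosialin (Cd248), fibroblast activation protein (Fap) and endoglin (Eng) mark mesenchymal and perivascular cells, and Mcam and Cd34 are shared with vascular cells.

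Icam1 and Mcam were the members with their highest level in iPSCs, while Cd44 had its highest at day 6 and a low level in iPSCs. The 250 bases before the start of these 3 genes are shown 5′ to 3′ on the strand of the gene, from RefSeq on build GRCm38.p6, so that the promoters of the contrasting genes can be compared. Capitals mark the GC box bound by SP and KLF factors (GGGCGG) and the ETS core (CCGGAA), each on either strand. The windows are at chr9:21015690-21015939 (plus strand) for Icam1, chr9:44134408-44134657 (plus strand) for Mcam and chr2:102901666-102901915 (minus strand) for Cd44.
Icam1: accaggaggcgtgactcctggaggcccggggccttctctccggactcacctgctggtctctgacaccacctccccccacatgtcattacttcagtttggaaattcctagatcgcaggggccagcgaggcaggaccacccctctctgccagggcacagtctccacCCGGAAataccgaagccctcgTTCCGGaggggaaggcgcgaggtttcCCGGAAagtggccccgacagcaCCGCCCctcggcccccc
Mcam: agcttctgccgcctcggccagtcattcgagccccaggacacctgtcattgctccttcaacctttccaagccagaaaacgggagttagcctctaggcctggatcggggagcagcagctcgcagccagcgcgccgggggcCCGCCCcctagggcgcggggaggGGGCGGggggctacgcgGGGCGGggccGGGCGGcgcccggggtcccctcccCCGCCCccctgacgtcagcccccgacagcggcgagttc
Cd44: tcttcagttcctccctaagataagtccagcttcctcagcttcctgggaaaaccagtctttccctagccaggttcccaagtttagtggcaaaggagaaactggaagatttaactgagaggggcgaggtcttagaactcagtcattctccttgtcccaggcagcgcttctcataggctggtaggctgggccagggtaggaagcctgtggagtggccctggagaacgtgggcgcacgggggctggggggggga
The Mcam window held 5 GC boxes and 25 CpG pairs at a GC content of 73.6%, higher than in 94.7% of all promoter windows in the reference. The Icam1 window held 1 GC box, 3 ETS cores and 15 CpG pairs at 65.2% GC. The Cd44 window held neither motif, with 5 CpG pairs at 56.4% GC. A GC box was present in 32.8% of the 32841 promoter windows of that length and an ETS core in 12.0%, and the median GC content was 52.4%. Promoters of 6 of the 10 members were found in the reference. Those of Cd34, Eng and Pdgfra also held neither motif, with 4 to 6 CpG pairs each. Matches to 6 further motifs were looked for on both strands and found in 0 of the 6 windows. The letters TGANTCA of AP-1 were in 6.75% of all windows. The RUNX letters TGTGGT were in 14.1% of them, and those of TEAD, which are GGAATG, in 12.6%. An octamer, searched as ATGCAAA, was present in 4.13%. The TATA box as TATAAA was present in 12.4%, and the E-box as CACGTG in 6.02%. A match of letters is a description and not a binding site.

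**Figure D1:**
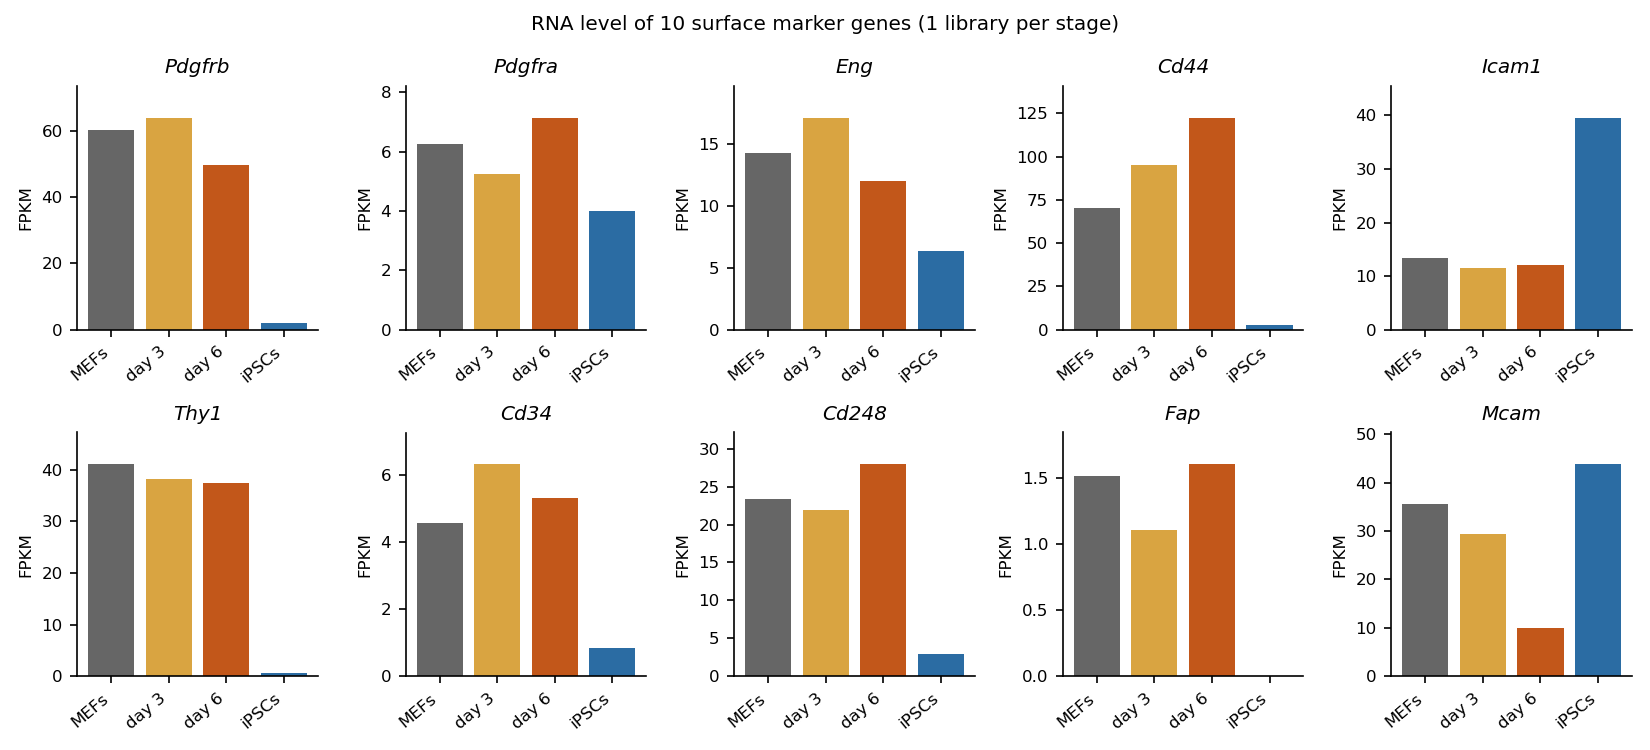
Level of each of the 10 surface marker genes in FPKM (vertical axis, from 0, scaled per gene) for MEFs, day 3, day 6 and iPSCs, with 1 bar per library and no error bars because each stage had 1 library. Icam1 was at 39.6 FPKM and Mcam at 43.8 in iPSCs, the highest bar of each, while Fap was listed at 0 there.

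Pdgfrb, the receptor for PDGF-B and PDGF-D that marks pericytes and fibroblasts, measured 60.4 FPKM in the MEF library, 64.0 on day 3, 49.8 on day 6 and 2.02 in iPSCs. Its level was thus similar in the MEF and induced libraries and 29.9-fold lower in iPSCs than in MEFs. Pdgfra, the receptor that also binds PDGF-A and is found in early embryonic mesoderm and primitive endoderm, was at 6.25, 5.25, 7.15 and 3.99 FPKM in the same order. The lowest of the 4 values was again that of iPSCs, yet the difference from MEFs was -0.54 on the log2 scale, within the rule. Pdgfra, the weaker receptor gene in MEFs, was thus at 63.9% of its MEF level in iPSCs and Pdgfrb at 3.34%.

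Eng, a co-receptor of the TGF-beta family with a large role in endothelium, measured 14.3 FPKM in the MEF library, 17.1 on day 3, 11.9 on day 6 and 6.31 in iPSCs. It was 2.26-fold lower in iPSCs than in MEFs, a log2 difference of -1.06 that lay just past the rule and was between -0.98 and -0.90 under the 3 other scalings of the libraries, within the rule. In the reference annotation Eng overlaps Fpgs, a coding gene of folate metabolism, which had 9.25 FPKM in MEFs against 19.7 in iPSCs. The sources used here give no strand setting for the counting, so reads from the overlap cannot be told apart. Non-coding genes without values here overlap Eng and also Cd34 (Gm16897), Cd44 (Gm23731) and Pdgfra (Mir7025), and the same limit holds there.

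Cd44 had the highest level of the 10 members in MEFs, at day 3 and at day 6. It measured 70.5 FPKM in the MEF library, 95.2 on day 3, 122 on day 6 and 2.65 in iPSCs. Each day of induction was thus above the one before, and iPSCs were far below all 3. The day 6 level was 174% of that in MEFs, a log2 difference of 0.79 that stayed within the rule and ranked 150 from the top among 11816 rows compared. In iPSCs Cd44 was 46.2-fold lower than at day 6 and 26.6-fold lower than in MEFs. The table gives 1 value per gene, so the splice forms of CD44 were not separated.

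Icam1 measured 13.4 FPKM in the MEF library, 11.4 on day 3, 12.0 on day 6 and 39.6 in iPSCs. The first 3 libraries lay close together and the iPSC library stood above them, by 2.95-fold against MEFs. The ratio of Icam1 to Cd44 in FPKM was 0.190 for MEFs, 0.120 on day 3, 0.0984 on day 6 and 14.9 for iPSCs. The ratios of days 3 and 6 were thus below that of MEFs, while that of iPSCs was above it. A bulk library averages over all cells, so a small fraction of cells with low Cd44 and high Icam1 would not be seen, and fewer cells of a type and less RNA per cell cannot be told apart.

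Thy1 measured 41.1 FPKM in the MEF library, 38.3 on day 3, 37.5 on day 6 and 0.608 in iPSCs. Its values in the fibroblast and induced libraries were the closest of all members, with a range of 0.13 on the log2 scale, and day 6 still held 91.3% of the MEF level. In iPSCs it was 67.6-fold lower than in MEFs, at 1.48% of that level. Of the log2 difference between MEFs and iPSCs, 2.73% was covered at day 6.

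Cd34, a sialomucin of blood and vascular progenitors that is also found on some fibroblasts, measured 4.57 FPKM in the MEF library, 6.31 on day 3, 5.32 on day 6 and 0.839 in iPSCs. All 3 early libraries were above iPSCs, by 5.45-fold for MEFs. Cd248, a C-type lectin of pericytes and activated stroma, was at 23.4, 21.9, 28.0 and 2.90 FPKM. It was 8.05-fold lower in iPSCs than in MEFs. Fap, a membrane serine protease, was the weakest member in every library, with 1.51 FPKM for MEFs, 1.11 on day 3 and 1.60 on day 6. It was listed at 0 in iPSCs, so no fold is given.

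Mcam, an immunoglobulin-family adhesion protein of pericytes, smooth muscle and endothelium, was the member with its lowest level at day 6. It measured 35.7 FPKM in the MEF library, 29.3 on day 3, 9.98 on day 6 and 43.8 in iPSCs. The other 3 libraries were at 29.3 FPKM or more, and MEFs and iPSCs were within the rule of each other (0.29 on the log2 scale). The day 6 level was 2.94-fold below day 3, the 6th lowest difference of 11817 rows, and 3.58-fold below MEFs, the 3rd lowest of 11816. It was 4.39-fold higher in iPSCs than at day 6.

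**Figure D2:**
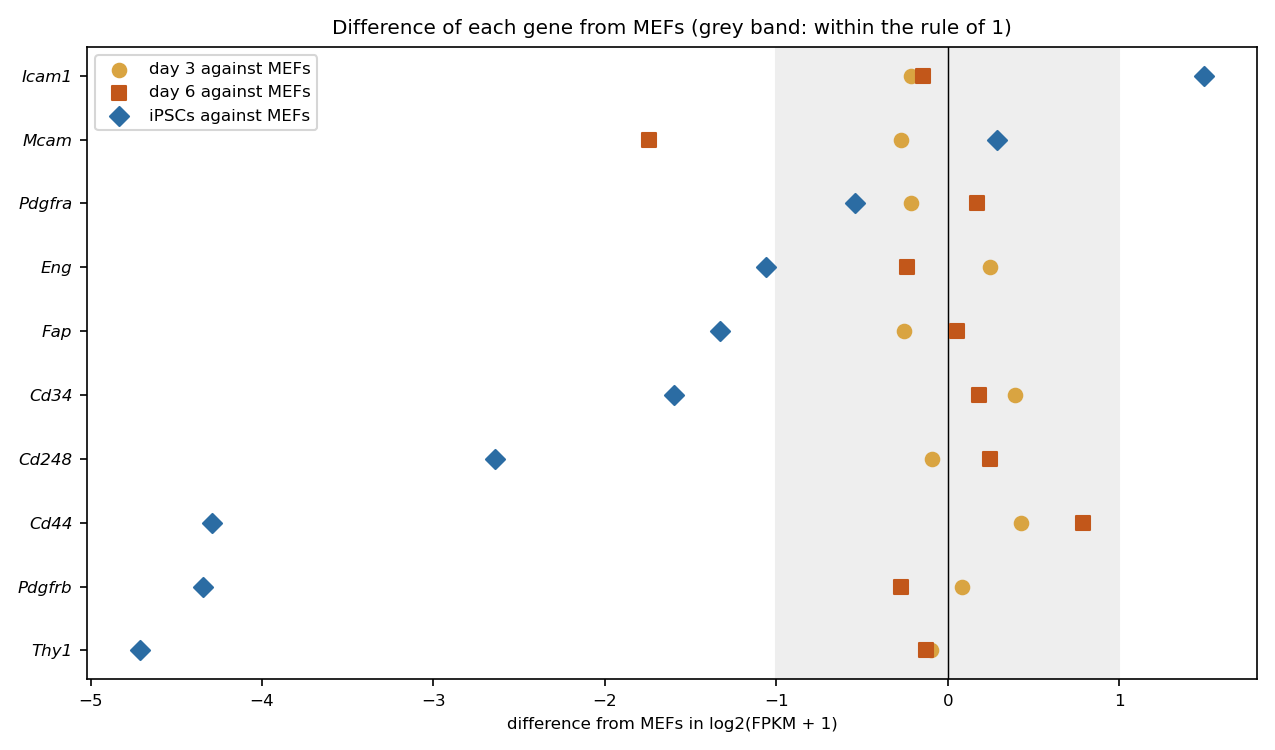
Difference of each gene from MEFs in log2(FPKM + 1) (horizontal axis) for day 3 (circles), day 6 (squares) and iPSCs (diamonds), 1 library each, with the range within the rule of 1 in grey. All day 3 circles are inside the band, Mcam is the day 6 square outside it at -1.74, and the iPSC diamonds run from -4.71 for Thy1 to 1.49 for Icam1.

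Counted over the members, 0 of 10 were past the rule at day 3 against MEFs, where 0.170% of all rows were higher and 0.0511% lower. The median difference was -0.10, beside -0.02 over the 11740 rows compared. Between day 3 and day 6, 1 member was lower (Mcam) and 0 higher, with 0.398% of rows lower and 0.457% higher, and the median was 0.02 beside -0.01. For day 6 against MEFs the same member was lower, with 0.584% of rows lower and 0.770% higher. The share of members lower, 10.0%, rests on that single gene.

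In iPSCs against MEFs, 7 of 10 members were lower (Thy1, Pdgfrb, Cd44, Cd248, Cd34, Fap and Eng) and 1 was higher (Icam1), while 25.0% of rows were lower and 21.1% higher. The median over the members was -1.46, beside -0.05 over the 12937 rows. Against day 6, 6 were lower (all of these but Eng) and 2 higher (Icam1 and Mcam), with 23.4% of rows lower and 20.4% higher, and the median was -1.58 beside -0.02. The 2 comparisons share the iPSC library. Most of the members are known as fibroblast genes, so a low level in iPSCs is part of why they were listed. Another scaling of the libraries to a common upper quartile moved the median of all rows from -0.05 to 0.13 for iPSCs against MEFs, and left all members but Eng on the same side of the rule.

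The order of levels also turned over. In MEFs it ran from Cd44 and Pdgfrb through Thy1, Mcam, Cd248, Eng, Icam1, Pdgfra and Cd34 to Fap. Day 3 kept that order except that Cd34 stood above Pdgfra. At day 6 Mcam stood in place 7, after place 4 in MEFs and at day 3. In iPSCs Mcam and Icam1 led, at 43.8 and 39.6 FPKM, followed by Eng at 6.31 and Pdgfra at 3.99, and Cd44 stood in place 6. Without replicates, it is not known which neighbours in these orders differ beyond their spread.

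Rows of the table with the most similar course were sought among 13100 other rows. The measure was the root mean square distance between log2(FPKM + 1) profiles over the 4 libraries, each centred on its mean. Nearest to Thy1 were Alcam (distance 0.023), Arhgdib (0.035) and Selp (0.043). Nearest to Pdgfrb were Lhfp (0.047), Tgfb1i1 (0.049) and Zfp521 (0.055). For Cd44 they were Dclk1 (0.13), 1500015O10Rik (0.14) and Ccnd2 (0.16), the last a D-type cyclin. Most members thus had close neighbours in the table on this scale. Nearest to Cd248 were Foxs1, C1qc and Zfp503 (all at 0.036). Nearest to Eng were Pde4a (0.018), Cpm (0.033) and Slc25a43 (0.035), and to Cd34 Cdk14 (0.036), Mkl1 (0.046) and Adam10 (0.052). For Pdgfra they were Rgp1 (0.028), Klhl22 (0.032) and Spata2l (0.034). Nearest to Fap were Tmtc4 (0.026), Galk2 (0.037) and Thnsl2 (0.038), and to Icam1 they were Gm11627 (0.015), Lrrc48 (0.016) and Ppp1r3b (0.016). The Icam1 neighbours were all under 1 FPKM in MEFs. Adding 1 before the log shrinks differences of weak rows, so a short distance need not mean a similar fold. Gm11627 read 0.185 FPKM for MEFs, 0 on day 3 and 2.25 for iPSCs, where Icam1 read 13.4, 11.4 and 39.6. Likewise, the MEF and iPSC values of Fap were 1.51 and 0 FPKM, and those of Tmtc4 were 15.2 and 5.54. The nearest rows of Mcam were farther off than those of the other 9 members: As3mt (0.23), the smooth muscle phosphatase inhibitor Ppp1r14a (0.32) and the skeletal actin Acta1 (0.33).

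The low day 6 level of Mcam stood beside low levels of smooth muscle genes. Of 10 such genes, 4 were lower at day 6 than at day 3 (Acta2, Cnn1, Myh11 and Synpo2) and 0 higher, beside 0.398% and 0.457% of all rows. Their median was -0.86, beside -0.01 over all rows. Acta2, smooth muscle actin, measured 2534 FPKM in the MEF library, 2132 on day 3, 1010 on day 6 and 87.2 in iPSCs, and the smooth muscle myosin Myh11 was at 17.2, 10.3, 2.44 and 0.256. At day 6 the 10 genes were at 14.2% to 69.0% of their MEF level, and Mcam was at 28.0%. In iPSCs they were at 1.02% to 38.8% and Mcam was at 123%, so the courses parted there. The summed level of the 10 genes was 4504, 3768, 1955 and 190 FPKM, and the part of smooth muscle-like cells in the Mcam value was not tested.

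**Figure D3:**
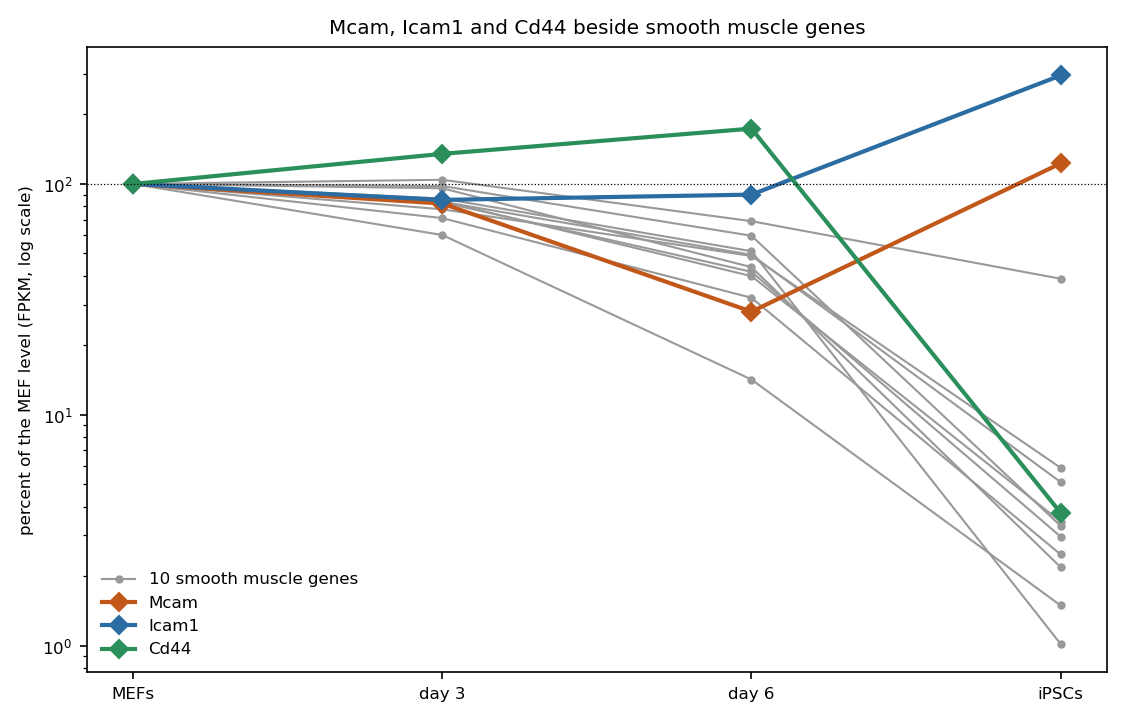
Level as percent of the MEF level (vertical axis, log scale) in the 4 libraries for Mcam, Icam1, Cd44 and 10 smooth muscle genes (grey lines), 1 library per stage. Mcam lies among the grey lines at day 6 (28.0%) and above all of them in iPSCs (123%), and Cd44 is above 100% at day 6 and at 3.76% in iPSCs.

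Several members are also genes of pericytes, endothelium or leukocytes, whose markers were read in the same libraries. Their part in the levels of the members was not tested. Of 12 mural cell genes 11 were found and 4 to 6 reached 1 FPKM in each library, with sums of 49.7 FPKM for MEFs, 57.4 on day 3, 52.6 on day 6 and 102 for iPSCs. Of 8 compared between iPSCs and MEFs, 4 were higher and 2 lower (median 1.34), beside 21.1% and 25.0% of all rows. The lower ones were Rgs5, at 17.4 and 0.030 FPKM in MEFs and iPSCs, and Cspg4 (NG2), at 25.5 and 0.098. The higher ones were Des (0.647 and 24.7), Notch3 (1.27 and 11.1), Cox4i2 (0.483 and 6.08) and Ndufa4l2 (0.241 and 55.6). The mural list was thus split, and Abcc9 and Kcnj8 were under 0.1 FPKM in all 4 libraries. Higd1b was listed at 0 in MEFs and at day 3.

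Of 14 endothelial genes 10 were found, with sums of 12.5, 10.5 and 12.3 FPKM in the first 3 libraries and 91.3 in iPSCs. Of 7 compared between iPSCs and MEFs, 5 were higher (Pecam1, Tek, Vwf, Egfl7 and Flt1) and 1 lower (Erg). Over all rows 21.1% were higher and 25.0% lower. Egfl7 (53.3) and Pecam1 (26.2) made up most of the iPSC sum. Pecam1 is also in the list of surface genes used to follow reprogramming, below. The endothelial cadherin gene Cdh5 was at 0.017, 0.019, 0.032 and 0.202 FPKM and the VEGF receptor gene Kdr at 0.104, 0.056, 0.037 and 0.091. Other genes of the list had more RNA. The transcription factor gene Erg was at 5.70, 4.19, 2.86 and 0.072 FPKM, and its day 6 value did not pass the rule against MEFs. Esam was at 2.08, 1.30, 1.70 and 2.15. Tek, the angiopoietin receptor gene, was at 0.262, 1.22, 2.06 and 2.45, and was the 1 gene of 5 past the rule at day 6 against MEFs. In that comparison 0.770% of all rows were higher and 0.584% lower. Emcn was listed at 0 at day 6 and in iPSCs.

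Of 13 leukocyte symbols 12 were found, with sums of 92.9, 68.7, 74.0 and 52.0 FPKM. The symbol not found was Adgre1, another name of Emr1, so no gene of the list was missing. Of 9 compared between iPSCs and MEFs, 7 were lower and 1 higher, beside 25.0% and 21.1% of all rows. Lyz2, a macrophage lysozyme gene, had 52.9 FPKM in MEFs against 0.030 in iPSCs. Laptm5 was the higher one, at 4.31 and 38.5, and with Cd68 (8.45 and 11.9) made up most of the iPSC sum. Ptprc, the pan-leukocyte antigen, was at 0.703, 0.387, 0.466 and 0 FPKM, and Tyrobp and Emr1 were also listed at 0 in iPSCs.

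Among 22 other surface genes of mesenchymal cells, 20 could be compared between iPSCs and MEFs. Of these, 17 were lower and 2 higher (median -2.27). Over all rows 25.0% were lower and 21.1% higher in that comparison, with a median of -0.05, and the counts and medians of the lists that follow stand beside these. Ddr2, a collagen receptor, had 49.2 FPKM in MEFs against 0.361 in iPSCs, and Cdh11, a mesenchymal cadherin, had 41.0 against 0.374. The higher ones were Pdpn, podoplanin, at 30.3 and 70.6 FPKM, and Dpp4, the closest relative of Fap, at 0.056 and 5.91. At day 6 against day 3, 2 of 19 were higher, beside 0.457% of all rows. The 2 genes were the integrin ligand Vcam1, at 2.85 and 8.89 FPKM, and Ly6c1, at 3.57 and 10.6.

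Among 20 other surface genes used to follow reprogramming, 19 were compared between iPSCs and MEFs, and 9 were higher and 4 lower. Epcam had 0.027 FPKM in MEFs against 122 in iPSCs, Kit had 0.059 against 21.6, and Alpl, the alkaline phosphatase of pluripotent cells, had 0.088 against 62.6. Epcam, Kit, Alpl, Pecam1 and Tdgf1 showed little RNA before the iPSC stage. Epcam was at 0.122 FPKM and Alpl at 0.162 at day 6. Of the other higher genes, Cd9 was already at 75.8 FPKM in MEFs and Lifr at 3.65. Cdh1 was at 0.082, 0.431, 1.14 and 63.1 FPKM, just within the rule at day 6 against MEFs (0.98). Ly6a, the gene of SCA1, measured 39.4 FPKM in the MEF library, 56.2 on day 3, 125 on day 6 and 0.699 in iPSCs. It was the 1 gene of 14 past the rule at day 6 against day 3, where 0.457% of all rows were higher and 0.398% lower. It shared with Cd44 a highest level at day 6 and a low level in iPSCs. Cd248 and Fap among the members, and Nt5e and Il6st in this list, were also highest at day 6 and lowest in iPSCs. Podxl, podocalyxin, a relative of Cd34, was at 0.087, 0.296, 1.49 and 21.7 FPKM. With Ly6a it made up the 2 of 14 genes past the rule at day 6 against MEFs, beside 0.770% of all rows higher.

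The partners of the members were read from lists of their pathways, and a few genes (Ezr, Vcam1 and Alcam among them) are in more than 1 list. For the PDGF receptors, 18 ligands and signalling genes were compared between iPSCs and MEFs, with 8 lower, 1 higher and -0.72 as the median, beside 25.0% and 21.1% of all rows. The ligand gene Pdgfc had 42.3 FPKM in MEFs against 1.12 in iPSCs and Pdgfd had 25.2 against 0.471, while Pdgfa was at 40.3 and 31.3. Pdgfa, whose product binds the receptor made by Pdgfra, was thus within the rule. The adaptor gene Gab1 was the higher one at 9.26 and 40.5. At day 6 against MEFs, Pdgfd was the 1 gene past the rule, lower at 11.7 FPKM, beside 0.584% of all rows lower.

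For endoglin, 17 genes of its receptor complex, ligands and SMADs were found and 16 compared, with 9 lower and 1 higher in iPSCs than in MEFs (median -1.04). Tgfb3 measured 143 FPKM in the MEF library, 119 on day 3, 72.6 on day 6 and 0.932 in iPSCs. The type II receptor gene Tgfbr2 was at 29.8 and 1.24 FPKM in MEFs and iPSCs, and the endothelial partner Acvrl1 at 4.76 and 1.81. Acvr2b, an activin receptor, was the higher one at 0.313 and 8.97. In the early comparisons 0 of 15 were past the rule, and 0.0511% to 0.770% of all rows were past it in each direction. These shares stand beside the early counts of the lists that follow.

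For CD44, 17 hyaluronan and CD44 partner genes were found and 16 compared between iPSCs and MEFs, with 4 lower and 3 higher (median -0.38), shares near those over all rows (25.0% and 21.1%). Spp1, osteopontin, had 7598 FPKM in MEFs against 161 in iPSCs, and Mmp14, a membrane protease that cuts CD44, had 138 against 10.9. Among the linkers to actin, moesin (Msn) was at 345 and 39.5 FPKM and ezrin (Ezr) at 30.6 and 102, so they differed in opposite directions. Esrp1, a splicing factor that acts on Cd44 transcripts, was at 0.010 and 10.9. In the early comparisons 0 of 14 were past the rule.

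For ICAM1, 16 partner, regulator and relative genes were found and 11 compared between iPSCs and MEFs, with 8 lower and 1 higher (median -1.57). The NF-kB subunit gene Rela was at 23.4 and 5.16 FPKM, and the receptor genes Ifngr1 and Il1r1 at 24.5 and 7.15 and at 9.15 and 0.326. Icam1 itself was at 13.4 and 39.6, so it stood on the other side from these genes. The 1 higher gene of the list was Ezr, at 30.6 and 102 FPKM, and Irf1 was at 7.83 and 10.9, within the rule. Its leukocyte integrin partners Itgal, Itgam and Itgb2 were each at 1.13 FPKM or less in every library.

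For MCAM, 10 partner and related genes were found and 8 compared, with 5 lower and 1 higher in iPSCs than in MEFs (median -2.82). Lama4, a laminin chain bound by MCAM, was at 14.3 and 0.574 FPKM and Wnt5a at 14.7 and 0.182. The higher one was Bcam, a related laminin receptor, at 8.39 and 89.6. In the early comparisons 0 of 8 were past the rule, while Mcam was at day 6. Of the 8 relatives of Fap 6 were compared, with 3 lower (Dpp7, Dpp8 and Dpp9) and 1 higher. Of the 5 relatives and ligands of Cd248 4 were compared, with 3 lower and 1 higher, and thrombomodulin (Thbd) was at 102 and 1.61 FPKM. Of 6 relatives and partners of Cd34, 2 were lower and 2 higher, among them Podxl2 at 12.3 and 2.78.

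**Figure D4:**
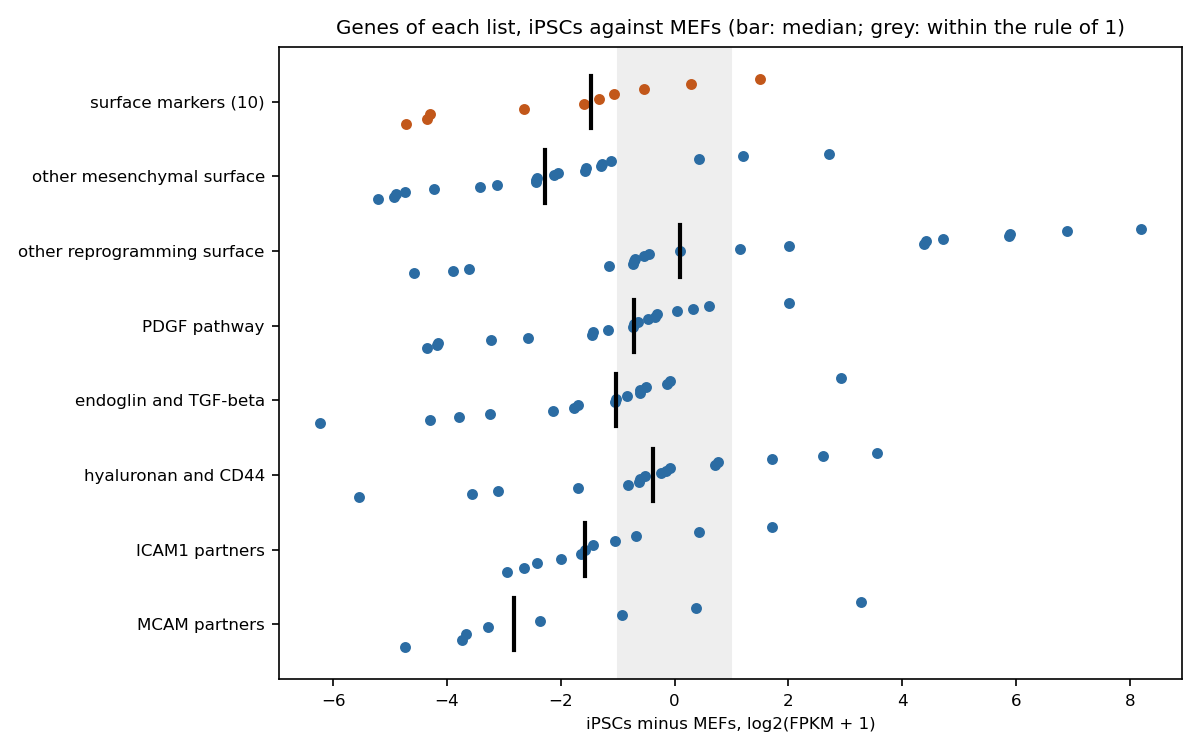
Difference between iPSCs and MEFs in log2(FPKM + 1) (horizontal axis) for the 10 surface markers (orange) and 7 related lists (blue), with 1 point per gene at 1 FPKM or more in either library and a bar at the list's median. The medians run from -2.82 for MCAM partners to 0.09 for the other reprogramming surface genes, and the surface markers are at -1.46.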

How the data were processed

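Gene levels came from 1 table of FPKM values that the authors deposited, with 1 column per long RNA library, per the file headers. The submitters' processing notes name HISAT2, Cufflinks and mm9, with no version or role, and the sources used here do not give gene models, strand setting, filters or pooling. Libraries were made from total RNA after ribosomal RNA removal, per the labels' protocols. The 4 small RNA libraries were not used here. Python 3.11.15, pandas 2.3.3 and numpy 2.4.6 computed differences of log2(FPKM + 1), and a difference of at least 1 with at least 1 FPKM in the higher library was called. The procedure was tested on simulated data without weakly expressed rows and with planted differences well past the rule. Differences near the rule and weak genes were thus not covered. The 10 members, their partner lists and the rules were chosen with earlier results of these data known. The genes named are the 10 members, list members past the rule or among the largest differences, and the 3 rows nearest to each member. Some further list members (such as Pdgfa, Acvrl1, Abcc9, Esam, Cd68 and the leukocyte integrins) were named after their values were seen. A symbol on several rows was represented by its highest row in the lists, and by each row in counts over all rows. Member identifiers matched a reference table of gene names in 10 of 10 cases. Sequences are from RefSeq on GRCm38.p6 and no coordinate was converted. Fragment totals are not stated in the table. Another pseudocount, filter, scaling and size of difference were tried.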

Additional observations from a re-analysis of the deposited data

How the results depend on the processing

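No paired analysis was possible because there was 1 library per stage, which also means that no replicate could be left out. The count of members past the rule was 0 for day 3 against MEFs under all 9 alternatives. With a log2 difference of 2 in place of 1, the counts were 0 for day 6 against day 3 and 0 for day 6 against MEFs (1 each as reported), 4 for iPSCs against MEFs and 5 for iPSCs against day 6 (8 each as reported), since the rule is stricter. With a 1.5-fold difference, 2 members were past it for day 6 against MEFs, Cd44 higher and Mcam lower. With a pseudocount of 5, 5 were past it for iPSCs against MEFs, without Cd34, Fap and Eng, since a larger pseudocount shrinks differences of weakly expressed genes. Other counts stayed within 1.5 times the reported one. Eng was within the rule for iPSCs against MEFs under all 3 scalings. Of 344 member differences under alternatives, 326 moved by under 1.5-fold, the 18 others under the pseudocounts of 0.1 (6) and 5 (12), and 0 past the rule changed sign. The 344 include those under other minimum FPKM values, which set only the genes compared, so these could not move. The sign of Thy1 for day 6 against day 3 (-0.03) was positive under 2 scalings. Low values, such as those of Fap and of Thy1 in iPSCs, are limited by a depth that is not stated.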
